A study of Mus musculus with 26 samples.

Results

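The 37 endothelial and angiogenic genes described here were a named set, mapped by gene symbol and Ensembl identifier onto the 57186 genes of the count table that holds wild type and the Fgf9 deletions. They comprised 28 pan-endothelial genes, 4 genes of arterial endothelium (Efnb2, Gja4, Gja5 and Dll4) and 5 genes of secreted vessel ligands (Vegfa, Vegfc, Angpt1, Angpt2 and Apln). The pan-endothelial genes fell into 11 junction and surface proteins, 5 secreted proteins and effector enzymes, 5 transcription factors and 7 receptors. The rule itself uses gene names alone, though the set was proposed with earlier results of these data known. All 37 passed the filter on low counts in both tables that were tested.

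RNA-seq had been carried out on polyadenylated RNA of whole XY mouse gonads at E13.5 (embryonic day), dissected free of the neighbouring mesonephros. Wild type (WT) was represented by 3 libraries, and the genotypes labelled as Fgf9 deletions by 3 libraries of genotype Fgf9 Δ306, 6 of Fgf9 Δ225, 4 of Fgf9 Δ104 and 6 of Fgf9 Δ93. A further 4 libraries came from a Meis1 knockout (Meis1 KO). The labels give neither the extent nor the zygosity of a deletion, and name no strain, litter or pool. Fgf9 encodes a growth factor required for testis development, and Meis1 a homeobox transcription factor. Every comparison with WT, in both tables, used the same 3 WT gonad samples. By the series' design text, the first deposit held WT and Δ306 only. Between WT or Δ306 and any of the other groups, genotype and deposit therefore cannot be told apart.

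Endothelial cells line blood vessels, and are held together by junction proteins such as VE-cadherin and claudin-5. Ligands of the VEGF, angiopoietin and apelin families act on receptors that these cells carry, and transcription factors of the ETS and SOXF families maintain their identity. In the fetal XY gonad, endothelial cells enter from the mesonephros and assemble a testis-type arterial vessel along the gonad surface, for which Efnb2, Gja4, Gja5 and Dll4 are arterial markers. The XX gonad builds no such vessel at this stage.

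Library totals were 11582619 to 53392393 counts in the table of WT and the deletions, and 35468633 to 51732897 counts in the table of WT and Meis1 KO. Meis1 had 9 to 29 counts in the KO libraries and 2291 to 4030 in WT. In CPM (counts scaled to a common library size), Fgf9 was at 9.21 to 9.85 in WT, 2.17 to 2.94 in Δ306, 3.69 to 16.5 in Δ225, 2.72 to 6.98 in Δ104 and 2.3 to 4.75 in Δ93. The value of 16.5 CPM belonged to the library labelled Δ225 replicate 3, which was above every WT library in Fgf9. The other Δ225 libraries were at 3.69 to 6.36 CPM. The labels do not say what Fgf9 level a deletion leaves. In 4 libraries labelled XY (Δ306 replicate 3, Δ225 replicate 4, and Δ93 replicates 4 and 5) the summed level of 4 Y-linked genes was under 1 CPM, while Xist did not exceed 6.42 CPM in any library. WT replicate 1 had 13.9 CPM of 5 summed germ-cell genes, against 482 and 720 CPM in the other WT libraries. It was also the highest WT library for 29 of the 37 endothelial and angiogenic genes.

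All 37 genes were detected in every group. Per kilobase of exon, the highest mean level in WT was that of Ephb4, the venous receptor of ephrin-B2, at 47.0 ± 4.67 CPM per kb (SD, n = 3). Cdh5, which encodes VE-cadherin, followed at 42.4 ± 7.83 CPM per kb, with a range of 34.4 to 50.1 that overlapped that of Ephb4 at 43.5 to 52.3. Vegfa came next at 28.3 ± 7.78 CPM per kb, and the following genes from Plvap at 21.8 ± 6.48 to Tie1 at 17.3 ± 4.49 were closer to each other than their spread. The arterial genes lay lower, with Efnb2 at 12.8 ± 2.11, Gja4 at 9.76 ± 1.25, Gja5 at 4.36 ± 1.14 and Dll4 at 3.04 ± 0.358 CPM per kb. Angpt2 was lowest, at 0.794 ± 0.595 CPM per kb.

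The members were lower than WT, on balance, in each of the 4 deletions. The median log2 fold change over the 37 genes was −0.58 in Δ306, −0.50 in Δ225, −0.73 in Δ104 and −0.60 in Δ93. Over all 22941 genes tested the median was 0.08, 0.04, 0.06 and 0.06. The fold change was negative for 36 of 37 members in Δ306, where Egfl7 was at 0.10, and for all 37 in the other deletions. These directions share the WT libraries and are not independent of each other. Without WT replicate 1 the 4 medians were −0.47, −0.38, −0.58 and −0.47, and 30, 32, 33 and 34 of the 37 fold changes were negative. In whole gonads, fewer endothelial cells and less RNA per cell cannot be told apart.

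Few members passed the test singly. By edgeR's quasi-likelihood test with Benjamini-Hochberg adjustment over all genes, 2 members were lower in Δ306 (Cdh5 and Vwf), where 6.43% of all genes were called in either direction. In Δ93, 7 were lower (Cdh5, Vwf, Sox17, Tek, Aplnr, Efnb2 and Gja5), where 14.1% of all genes were called. No member was called in Δ225 or in Δ104, where 0.209% and 0.061% of all genes were called. At an unadjusted p under 0.05 there were 13 members in Δ225 and 18 in Δ104, against 3687 and 3610 of all 22941 genes tested. By DESeq2, 1 and 2 members were called there, against 1.86% and 1.42% of all genes. DESeq2 called 5 members in Δ306 and 11 in Δ93, against 6.41% and 10.7% of all genes. No member was called higher than WT in a deletion by either tool.

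Libraries of the deletion all lay below every WT library for 18 members in Δ306, 10 in Δ225, 16 in Δ104 and 21 in Δ93. Among all genes tested that pattern was found in 18.4%, 4.9%, 9.4% and 12.5%. No member had all libraries of a deletion above WT, a pattern found in 19.2%, 5.22%, 8.68% and 12.1% of all genes. The plot of fold changes by gene places the junction, receptor and transcription factor genes mostly between −1 and 0 on the log2 scale, with Vwf and Gja5 furthest below in Δ306 and Δ93.

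**Figure D1:**
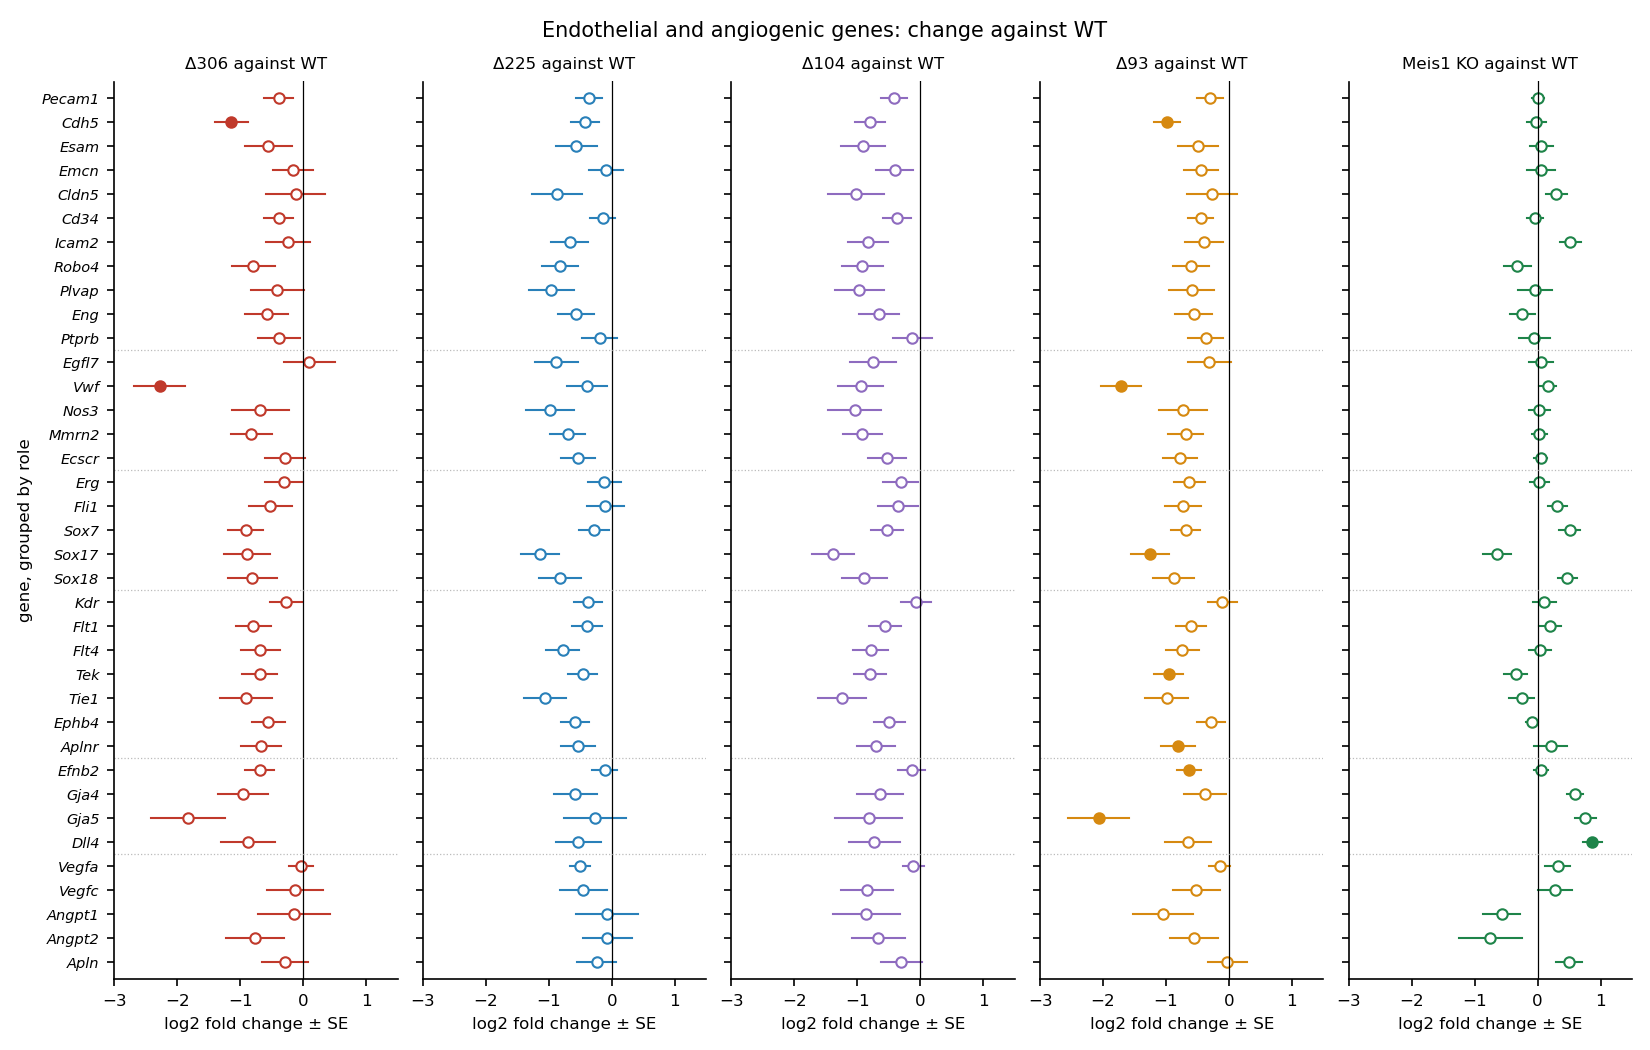
Log2 fold change against WT (horizontal axis, point with its standard error as a bar) of the 37 genes (rows, grouped by role with dotted lines between groups) in Δ306, Δ225, Δ104, Δ93 and Meis1 KO. Filled points passed the test at an adjusted p under 0.05; 2 are filled in Δ306, 7 in Δ93 and 1 in Meis1 KO, and none in Δ225 or Δ104.

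Among the 11 junction and surface genes, Cdh5 alone was called in a deletion (ENSMUSG00000031871, chromosome 8, 104101625 to 104144511, plus strand, GRCm38). Its levels were 210, 180 and 145 CPM in WT, 103, 61.5 and 78.9 in Δ306 and 66.8, 106, 139 and 97.0 in Δ104. In Δ93 it ranged from 70.2 to 110 CPM (median 90.7), and in Δ225 from 90.5 to 175 (median 133). Every Δ306, Δ104 and Δ93 library was therefore below every WT library, while Δ225 overlapped WT. Cdh5 fell in Δ306 by 1.14 on the log2 scale (SE 0.26, adjusted p 0.0147 by edgeR), a 2.2-fold lower level. In Δ93 it fell by 0.98 (SE 0.21, adjusted p 0.00532). The fold change was −0.80 in Δ104 (SE 0.24, adjusted p 0.147) and −0.43 in Δ225 (SE 0.22, adjusted p 0.33), neither called. In Δ306 the gene missed the threshold when WT replicate 1 was left out (adjusted p 0.0557), Δ306 replicate 2 (0.0748), Δ306 replicate 3 (0.0649), or the 4 libraries low in Y-linked genes (0.0911). The call in Δ93 held under all 19 alternatives, with adjusted p of at most 0.0429.

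The other 10 junction and surface genes were not called in any deletion. Pecam1, an adhesion receptor at endothelial contacts, had 116 ± 8.31 CPM in WT (SD, n = 3), with fold changes of −0.39 in Δ306 (SE 0.23, adjusted p 0.341), −0.36 in Δ225, −0.42 in Δ104 (SE 0.21, adjusted p 0.337) and −0.30 in Δ93. Its Δ306 and Δ104 libraries lay below every WT library. Among the WT libraries Pecam1 was lowest in replicate 1, which was also the lowest in germ-cell genes. The part of germ cells in the Pecam1 levels was not tested. Robo4, an endothelial roundabout receptor, lay below WT in every library of Δ306, Δ225 and Δ104. Its level was 29.0 ± 5.48 CPM in WT and 16.8 ± 5.13, 16.4 ± 6.04 and 15.4 ± 2.32 CPM in those groups (n = 3, 6 and 4). The fold changes were −0.79 (SE 0.34, adjusted p 0.178), −0.82 (SE 0.29, adjusted p 0.206) and −0.92 (SE 0.32, adjusted p 0.205). Plvap, a component of the diaphragms of fenestrated endothelium, had the same position in Δ225, Δ104 and Δ93, at fold changes of −0.96 (SE 0.36, adjusted p 0.225), −0.97 (SE 0.39, adjusted p 0.258) and −0.59 (SE 0.36, adjusted p 0.30). Eng, the TGF-beta co-receptor endoglin, lay below WT in every library of Δ104 (−0.66, SE 0.32, adjusted p 0.317) and Δ93 (−0.56, SE 0.29, adjusted p 0.209). Cd34, a sialomucin, did so too, at −0.37 (SE 0.22, adjusted p 0.403) and −0.45 (SE 0.20, adjusted p 0.136). Emcn (the sialomucin endomucin), Cldn5 (the tight junction protein claudin-5), Esam (an adhesion molecule), Icam2 (an integrin ligand) and Ptprb (the phosphatase VE-PTP) overlapped WT in most deletions, at fold changes between −1.02 and −0.09. The exception was Icam2 in Δ225, at 8.89 to 14.2 CPM in WT and 4.49 to 8.85 in Δ225 (−0.67, SE 0.29, adjusted p 0.282).

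Of the 5 secreted proteins and effectors, Vwf, the clotting glycoprotein stored in endothelial Weibel-Palade bodies, had the largest differences, in Δ306 and Δ93 (ENSMUSG00000001930, chromosome 6, 125546774 to 125686679, plus strand). It was at 44.4, 35.3 and 32.6 CPM in WT and at 11, 4.4 and 7.77 in Δ306. In Δ93 it ranged from 8.61 to 14.0 CPM (median 11.6), and in Δ225 from 16.7 to 42.1 (median 30.1). The 4 Δ104 libraries were at 9.44, 15.2, 27.2 and 25.6 CPM. The Δ306 and Δ93 libraries lay far below WT and below every Δ225 library, whereas Δ225 overlapped WT. Vwf fell by 2.28 in Δ306 (SE 0.40, adjusted p 0.0043), a 4.86-fold lower level, and by 1.71 in Δ93 (SE 0.32, adjusted p 0.00182), 3.28-fold lower. In Δ225 and Δ104 the fold changes were −0.39 (SE 0.32, adjusted p 0.539) and −0.95 (SE 0.35, adjusted p 0.229). Vwf held its call in Δ93 under all 19 alternatives, and in Δ306 under all but the removal of the 4 libraries low in Y-linked genes (adjusted p 0.053). Megakaryocytes and platelets also hold Vwf. None of the 7 tested megakaryocyte and platelet genes was called in Δ306 or Δ93, and their summed level was 10.2 to 18.9 CPM in WT, 7.79 to 30.1 in Δ306 and 6.74 to 20.6 in Δ93. These levels are low, and the part of these cells in the Vwf levels was not tested.

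Nos3, the endothelial nitric oxide synthase, was below WT in every library of all 4 deletions, at 9.01 ± 1.62 CPM in WT and group means of 4.39 to 5.62 CPM. Its fold changes were −0.68 in Δ306 (SE 0.45, adjusted p 0.405), −0.98 in Δ225 (SE 0.38, adjusted p 0.238), −1.04 in Δ104 (SE 0.42, adjusted p 0.258) and −0.73 in Δ93 (SE 0.38, adjusted p 0.215), so that no call was made. Nos3 shares exon bases with Gm15587 and Atg9b on the opposite strand, and the strand setting of the counting is not given. Mmrn2, an extracellular matrix glycoprotein of vessels, was below WT in every library of Δ306, Δ225 and Δ104, at −0.82 (SE 0.33, adjusted p 0.144), −0.70 (SE 0.28, adjusted p 0.249) and −0.92 (SE 0.31, adjusted p 0.185). Ecscr, a surface regulator of endothelial migration, was below it in Δ225 and Δ93, at −0.54 (SE 0.27, adjusted p 0.329) and −0.78 (SE 0.27, adjusted p 0.0572). Egfl7, a secreted vessel matrix protein and host gene of miR-126, overlapped WT in all deletions. Its levels were 25.3 ± 5.56 CPM in WT, 27.1 ± 4.82 in Δ306, 20.4 ± 4.16 in Δ93, 15.1 ± 8.04 in Δ104 and 13.6 ± 6.05 in Δ225.

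Sox17, a SOXF factor associated with arterial identity, was the transcription factor furthest below WT in Δ225, Δ104 and Δ93. It was at 23.7, 18.5 and 13.2 CPM in WT, at 11.6, 9.04 and 9.29 in Δ306 and at 3.67, 5.8, 7.03 and 11.8 in Δ104. It ranged from 5.27 to 11.6 CPM in Δ225 (median 8.22) and from 5.56 to 9.71 in Δ93 (median 7.52). No library of any deletion reached the lowest WT library. Sox17 fell by 1.26 in Δ93 (SE 0.30, adjusted p 0.00759), a 2.4-fold lower level. The fold changes of −0.89 in Δ306 (SE 0.36, adjusted p 0.14), −1.14 in Δ225 (SE 0.30, adjusted p 0.102) and −1.39 in Δ104 (SE 0.33, adjusted p 0.0809) were not called. With WT replicate 1 left out, Sox17 missed the threshold in Δ93 (adjusted p 0.067). An antisense gene that overlaps Sox17, Gm37587, did not exceed 0.0883 CPM in any library.

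The other SOXF factors followed less evenly. Sox7 was below WT in every library of Δ306 and Δ93, at fold changes of −0.91 (SE 0.28, adjusted p 0.0528) and −0.69 (SE 0.23, adjusted p 0.0521), neither called. Sox18 was below WT in every library of Δ306, Δ104 and Δ93, at −0.81 (SE 0.39, adjusted p 0.232), −0.89 (SE 0.36, adjusted p 0.258) and −0.88 (SE 0.33, adjusted p 0.0754). The ETS factors Erg and Fli1, which maintain endothelial identity, were below WT in every Δ93 library, at −0.63 (SE 0.25, adjusted p 0.102) and −0.73 (SE 0.29, adjusted p 0.093), and overlapped WT in the other deletions. In Δ93 none of the 5 transcription factors overlapped WT, and 1 of 5 was called.

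Among the receptors, Tek (TIE2, the angiopoietin receptor) was at 40.8, 28.0 and 26.4 CPM in WT. It was at 24.7, 13.4 and 20.7 CPM in Δ306, 11.2, 19.5, 22.8 and 19.6 in Δ104, and 13.1 to 21.3 in Δ93 (median 15.7). Δ225 ranged from 16.4 to 30.6 CPM (median 23.4) and was the one deletion whose libraries overlapped WT. Tek fell by 0.96 in Δ93 (SE 0.23, adjusted p 0.00927), and missed the threshold with WT replicate 1 left out (adjusted p 0.0885). The fold changes of −0.69 in Δ306 (SE 0.28, adjusted p 0.137) and −0.80 in Δ104 (SE 0.26, adjusted p 0.175) were not called. Tie1, the orphan receptor that pairs with TIE2, was at 107, 85.5 and 62.9 CPM in WT and did not exceed 58.3 CPM in any deletion library. Its fold changes of −0.91 in Δ306 (SE 0.41, adjusted p 0.196), −1.06 in Δ225 (SE 0.34, adjusted p 0.175), −1.24 in Δ104 (SE 0.38, adjusted p 0.158) and −0.99 in Δ93 (SE 0.34, adjusted p 0.0579) were not called.

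Aplnr, the apelin receptor, was at 102, 66.9 and 58.6 CPM in WT and from 33.8 to 53.1 in Δ93 (median 43.9), with no overlap. It fell by 0.81 in Δ93 (SE 0.27, adjusted p 0.0496), but missed the threshold in 12 of 19 alternatives, among them the removal of WT replicate 1 (adjusted p 0.306). In Δ306 it was at 58.5, 36.1 and 48.8 CPM, just below the lowest WT library, a fold change of −0.67 (SE 0.32, adjusted p 0.227). Ephb4 was below every WT library in all 4 deletions, by a narrow margin in Δ225 and Δ93 (highest 200 and 201 CPM, lowest WT 202). It was at 218 ± 21.7 CPM in WT and group means of 145 to 178 CPM, with fold changes of −0.55 in Δ306 (SE 0.26, adjusted p 0.214), −0.58 in Δ225 (SE 0.22, adjusted p 0.227), −0.49 in Δ104 (SE 0.24, adjusted p 0.322) and −0.29 in Δ93 (SE 0.22, adjusted p 0.41). The VEGF receptors differed among themselves. Kdr (VEGFR2), the main signalling receptor for VEGF-A, was closest to WT, at −0.27, −0.38, −0.07 and −0.11, and overlapped WT in every deletion. Flt1 (VEGFR1) was below WT in every library of Δ306 and Δ93, at −0.79 (SE 0.28, adjusted p 0.0933) and −0.60 (SE 0.24, adjusted p 0.0969). Flt4 (VEGFR3) was below WT in every library of Δ104 and Δ93, at −0.79 (SE 0.28, adjusted p 0.222) and −0.74 (SE 0.26, adjusted p 0.0585).

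**Figure D2:**
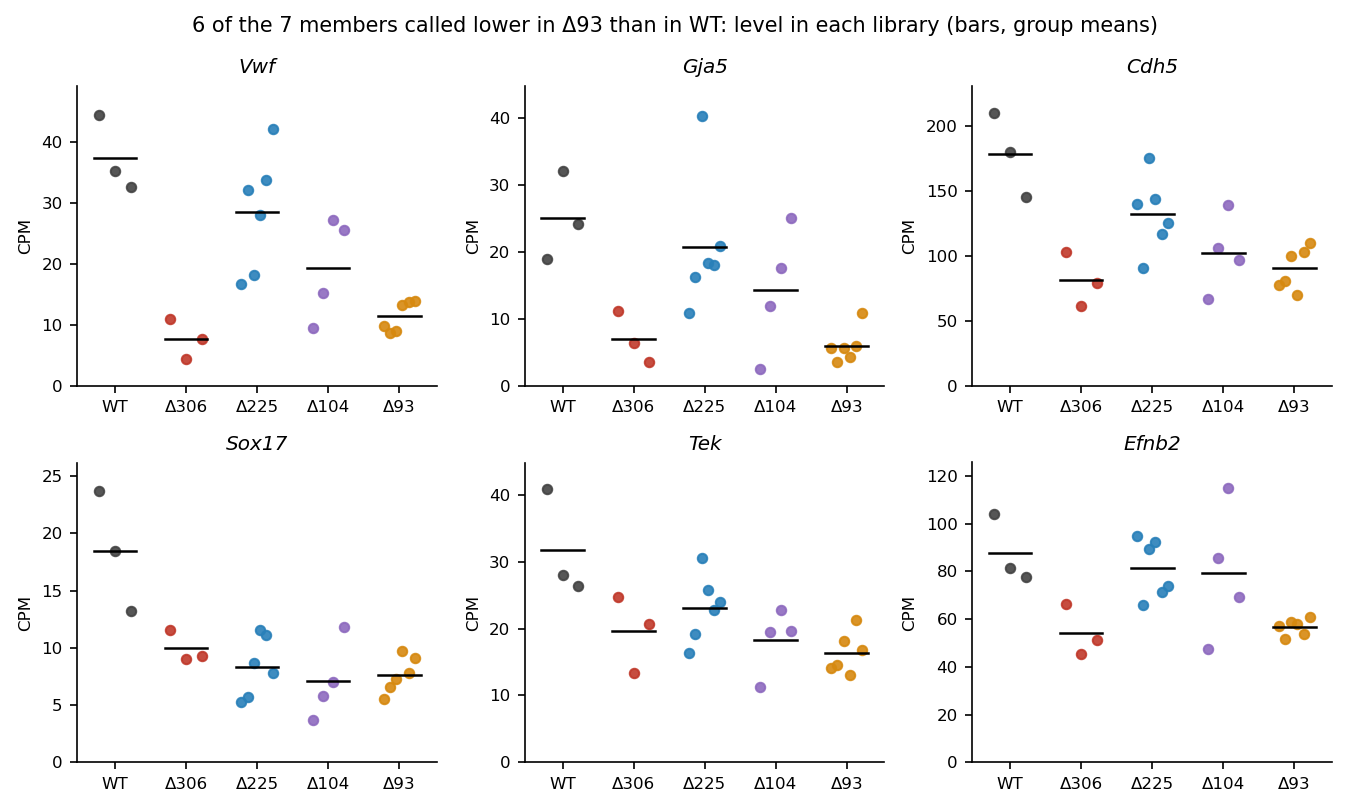
Level in CPM (vertical axis from 0) of Vwf, Gja5, Cdh5, Sox17, Tek and Efnb2 in each library (points) of WT, Δ306, Δ225, Δ104 and Δ93, with bars at the group means. All 6 genes lie below every WT library in the Δ93 and the Δ306 libraries; in Δ225, Sox17 does so as well and the other 5 overlap WT.

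The 4 arterial genes were examined apart from the pan-endothelial ones. Their promoters are shown because these 4 genes mark the testis-type artery. Each is the stretch of 250 bases before the RefSeq transcription start, 5′ to 3′ on the gene's strand, on GRCm38.p6: Efnb2 at chr8:8661243-8661492 (minus strand), Gja4 at chr4:127314040-127314289 (minus strand), Gja5 at chr3:97032152-97032401 (plus strand) and Dll4 at chr2:119325534-119325783 (plus strand). Capitals mark a match, on either strand, to AGGAAG (ETS factors), ACAAT (SOX factors) or TGGGAA (RBPJ, the DNA-binding partner of Notch).
Efnb2: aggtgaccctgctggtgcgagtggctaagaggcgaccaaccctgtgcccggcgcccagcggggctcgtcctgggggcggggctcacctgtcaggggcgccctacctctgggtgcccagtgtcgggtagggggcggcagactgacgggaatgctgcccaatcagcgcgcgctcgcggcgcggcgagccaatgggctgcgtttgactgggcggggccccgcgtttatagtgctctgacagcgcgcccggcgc
Gja4: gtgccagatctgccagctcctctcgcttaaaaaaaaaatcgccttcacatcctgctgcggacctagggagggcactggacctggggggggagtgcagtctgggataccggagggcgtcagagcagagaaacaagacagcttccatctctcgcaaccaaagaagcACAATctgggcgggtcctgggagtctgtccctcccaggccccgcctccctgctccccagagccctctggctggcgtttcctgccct
Gja5: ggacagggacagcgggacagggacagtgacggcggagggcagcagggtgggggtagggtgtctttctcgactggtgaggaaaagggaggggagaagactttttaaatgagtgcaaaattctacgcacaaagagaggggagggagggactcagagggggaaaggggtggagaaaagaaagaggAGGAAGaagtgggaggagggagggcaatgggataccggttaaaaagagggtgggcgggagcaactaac
Dll4: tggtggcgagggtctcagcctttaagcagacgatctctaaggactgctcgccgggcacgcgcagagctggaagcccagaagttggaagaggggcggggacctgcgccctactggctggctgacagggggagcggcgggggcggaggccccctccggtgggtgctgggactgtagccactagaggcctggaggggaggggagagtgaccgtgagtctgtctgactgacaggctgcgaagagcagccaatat
Gja5 held 1 ETS match, starting 68 bases before the start, and Gja4 1 SOX match, 86 bases before it. Efnb2 and Dll4 held none of the 3 motifs in this window, and no RBPJ match was found in the 4. Among 32851 promoters of the RefSeq table, 29.5% held the ETS motif, 27.7% the SOX motif and 21.6% the RBPJ motif. Of 25 promoters listed for 20 of the 37 members, 11, 6 and 6 held them.

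Gja5 (connexin-40, a gap junction protein of arterial endothelium, ENSMUSG00000057123, chromosome 3, 96904693 to 97077416, plus strand, GRCm38) was at 19.0, 32.0 and 24.2 CPM in WT. It was at 11.2, 6.34 and 3.64 CPM in Δ306 and at 3.56 to 10.8 in Δ93 (median 5.62). It was at 10.8 to 40.3 CPM in Δ225 (median 18.2) and at 2.47, 11.9, 17.6 and 25.1 in Δ104. The Δ306 and Δ93 libraries did not overlap WT, whereas those of Δ225 and Δ104 did. Gja5 fell by 2.07 in Δ93 (SE 0.48, adjusted p 0.00736), a 4.19-fold lower level, and the call held under all 19 alternatives. In Δ306 the fold change of −1.83 (SE 0.59, adjusted p 0.0679) was not called, nor were −0.27 in Δ225 (SE 0.49, adjusted p 0.80) and −0.82 in Δ104 (SE 0.53, adjusted p 0.442). Gja5 shares 165 exon bases with Gpr89 on the opposite strand. Gpr89 was at 17.5 to 18.2 CPM in WT and 17.4 to 26.2 in Δ93, a fold change of 0.17 (adjusted p 0.431).

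Efnb2 (ephrin-B2, the arterial ligand of EPHB4) was at 87.6 ± 14.4 CPM in WT (SD, n = 3; lowest library 77.5), at 66.4, 45.2 and 51.2 in Δ306 and at 51.6 to 60.9 in Δ93 (median 57.5). Neither deletion overlapped WT. It fell by 0.63 in Δ93 (SE 0.19, adjusted p 0.0342), but missed the threshold in 12 of 19 alternatives, among them a correction for base composition (adjusted p 0.0534) and the removal of WT replicate 1 (0.186). The fold changes in Δ306, Δ225 and Δ104 were −0.69 (SE 0.23, adjusted p 0.0736), −0.11 (SE 0.20, adjusted p 0.795) and −0.14 (SE 0.21, adjusted p 0.755).

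Gja4 (connexin-37) and Dll4 (the arterial Notch ligand) were not called in any deletion. Gja4 was at 15.2, 18.9 and 15.2 CPM in WT and at 9.87, 7.23 and 8.44 in Δ306, without overlap, at a fold change of −0.95 (SE 0.40, adjusted p 0.164). Its fold changes in Δ225, Δ104 and Δ93 were −0.58 (SE 0.34), −0.64 (SE 0.37) and −0.38 (SE 0.34), with adjusted p of 0.385, 0.394 and 0.499. Dll4 was at 11.8, 13.1 and 10.3 CPM in WT, at 9.61, 5.0 and 4.7 in Δ306 and at 6.04 to 9.31 in Δ93 (median 7.1), again without overlap. Its fold changes were −0.87 (SE 0.43, adjusted p 0.247) in Δ306, −0.53 (SE 0.36, adjusted p 0.46) in Δ225, −0.73 (SE 0.40, adjusted p 0.369) in Δ104 and −0.65 (SE 0.36, adjusted p 0.253) in Δ93.

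None of the 5 ligand genes was called in a deletion. Vegfa, the VEGFR2 ligand made by many cell types, was at 121 ± 33.3 CPM in WT and 119 ± 2.91 in Δ306, a fold change of −0.03 (SE 0.19, adjusted p 0.951). It was at −0.15 in Δ93 (SE 0.16, adjusted p 0.571), −0.11 in Δ104 (SE 0.17, adjusted p 0.766) and −0.50 in Δ225 (SE 0.16, adjusted p 0.168). Vegfc, the VEGFR3 ligand, had fold changes of −0.13 (SE 0.44), −0.45 (SE 0.37), −0.85 (SE 0.41) and −0.52 (SE 0.37) in Δ306, Δ225, Δ104 and Δ93, with adjusted p of 0.315 to 0.904. Vegfc was below every WT library in Δ104, at 1.39 to 4.32 CPM against 4.4 to 7.89.

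Angpt1, the TIE2 agonist, was at 7.47 ± 3.24 CPM in WT and 3.59 ± 1.5 in Δ93, a fold change of −1.05 (SE 0.48, adjusted p 0.152). Its fold changes in Δ306, Δ225 and Δ104 were −0.14 (SE 0.57), −0.07 (SE 0.49) and −0.86 (SE 0.53), with adjusted p of 0.921, 0.951 and 0.42. Angpt2, a context-dependent TIE2 ligand, varied from 1.42 to 5.45 CPM within WT, and its fold changes lay between −0.76 and −0.07 with adjusted p of 0.349 or more and SE of 0.38 to 0.46. Apln, which encodes apelin, lay between −0.30 and −0.03, with adjusted p of 0.663 or more and SE of 0.31 to 0.36. These ligand levels overlapped WT in all groups, with the exception of Vegfc in Δ104.

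Vwf, Gja5 and Cdh5 were then set against the rest of the endothelial genes within each library. The reference was the mean log2(CPM + 0.5) of 24 other pan-endothelial members, which was 4.66 to 5.20 in WT and 3.63 to 4.76 in the deletion libraries. Relative to it, Vwf was at 0.24 to 0.39 in WT, −1.73 to −1.23 in Δ306 and −1.23 to −0.48 in Δ93, but at −0.43 to 1.23 in Δ225 and −0.31 to 0.37 in Δ104. Gja5 was at −0.91 to 0.09 in WT, −2.32 to −1.21 in Δ306 and −2.17 to −0.97 in Δ93, against −0.37 to 0.69 in Δ225. In Δ104 it was at −2.06 to 0.16. Cdh5 was at 2.52 to 2.56 in WT, 1.93 to 1.94 in Δ306, 1.88 to 2.34 in Δ93 and 2.41 to 3.43 in Δ225. In Δ104 Cdh5 was at 2.09 to 2.71. In Δ306 and Δ93 these 3 genes were thus further below WT than the reference genes were, without overlap with WT. Gja4 at −1.22 to −0.65 in WT and −1.16 to −0.36 in Δ93, and Dll4 at −1.58 to −1.17 and −1.73 to −1.18, overlapped WT on this scale. Efnb2 did too, at 1.43 to 1.63 in WT, 1.31 to 1.49 in Δ306 and 1.28 to 1.89 in Δ93. Kdr went the other way without overlap, at 1.81 to 2.10 in WT, 2.18 to 2.42 in Δ306 and 2.41 to 2.78 in Δ93. Vwf, Gja5 and Cdh5 were picked for their fold changes, and the values are a description.

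**Figure D3:**
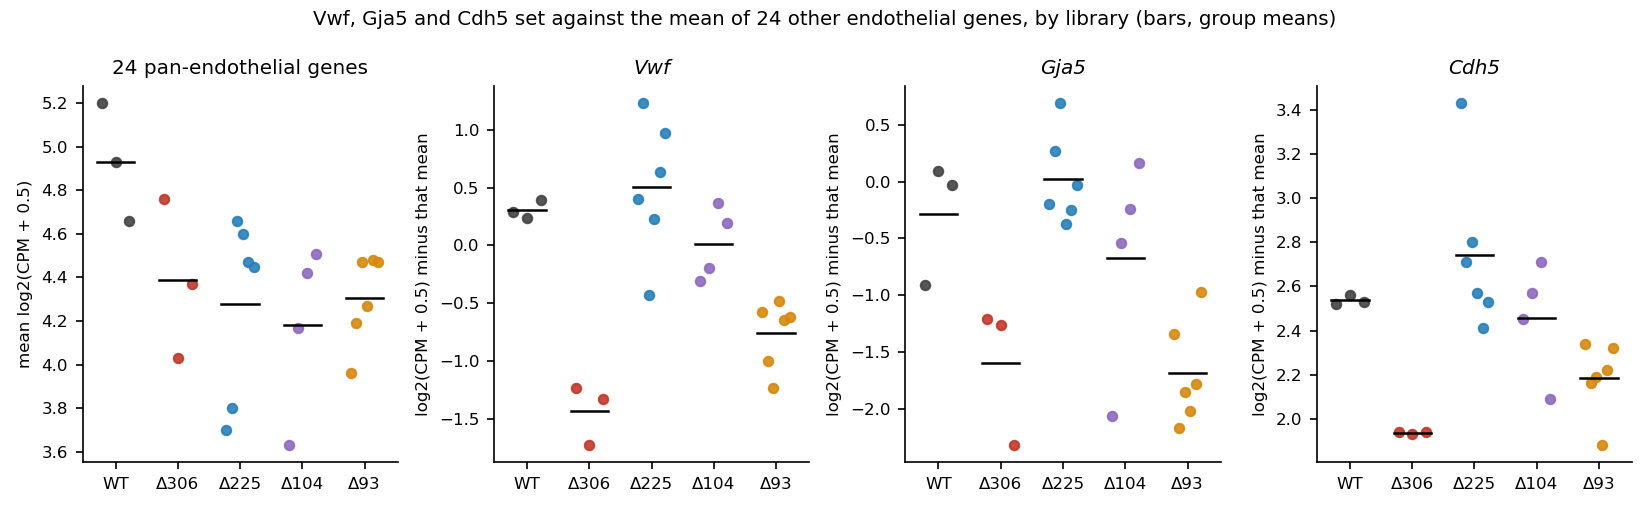
Left panel, mean log2(CPM + 0.5) of 24 pan-endothelial genes in each library (points; bars, group means); other panels, log2(CPM + 0.5) of Vwf, Gja5 and Cdh5 minus that mean. Relative to the other endothelial genes, Vwf, Gja5 and Cdh5 lie below WT in all Δ306 and Δ93 libraries and overlap or exceed WT in Δ225.

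The arterial genes varied widely among the Δ104 libraries. In replicates 1, 2, 3 and 4, Gja5 was at 2.47, 11.9, 17.6 and 25.1 CPM, Gja4 at 5.28, 9.24, 10.9 and 17.0, and Dll4 at 3.39, 5.7, 6.22 and 13.0. The summed level of 9 Sertoli genes in the same libraries was 207, 565, 1220 and 2190 CPM, and that of 6 pre-granulosa genes 722, 352, 141 and 67.0. The order of the 4 libraries was the same for the 3 arterial genes and for the Sertoli sum. It was also that of the mean log2 level of the 24 pan-endothelial genes, at 3.63, 4.17, 4.42 and 4.51, and so was not particular to the arterial genes. Efnb2, at 47.5, 85.5, 115 and 69.2 CPM, had another order. The part of the supporting-cell genes in these levels was not tested.

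Other cell types moved with the calls in Δ306 and Δ93. Of all genes, 6.43% were called in Δ306, 14.1% in Δ93, 0.209% in Δ225 and 0.061% in Δ104. Of 9 pericyte and smooth muscle genes, 4 were lower in both Δ306 and Δ93 (Acta2, Cspg4, Pdgfrb and Notch3), and none in Δ225 or Δ104. Their summed level was 626 to 876 CPM in WT, 196 to 373 in Δ306, 222 to 393 in Δ93, 455 to 932 in Δ225 and 212 to 633 in Δ104. The summed level of 5 fetal Leydig genes was 902 to 1550 CPM in WT, 39.8 to 91.3 in Δ306 and 50.1 to 314 in Δ93. Of 6 pre-granulosa genes, 5 were higher in Δ306 and 6 in Δ93 (median fold changes 3.4 and 3.85), with sums of 64.4 to 112 CPM in WT, 378 to 737 in Δ306 and 430 to 1090 in Δ93. Of 9 Sertoli genes, 1 and 3 were lower (medians −1.94 and −1.63), with sums of 2280 to 2740, 244 to 674 and 258 to 1090 CPM. This list includes Fgf9, the gene named in the deletion labels. Fgf9 was the only Sertoli gene called in Δ306, and the 3 called in Δ93 were Fgf9, Ptgds and Hsd17b3. The fold changes of Fgf9, −1.94 and −1.63, equal the medians. The sum of 10 mesonephros genes was 97.8 to 113 CPM in WT, 180 to 243 in Δ306 and 171 to 265 in Δ93. Much of it was Emx2, at means of 56.9, 139 and 155 CPM. Called were 1 higher in Δ306 (Emx2), and 2 higher (Emx2 and Pax8) and 1 lower (Wnt9b) in Δ93. Negative fold changes were found for 4 of the 10 in Δ306 (median 0.6) and 6 of the 10 in Δ93 (median −0.21). Macrophage genes were not called in any deletion against WT (0 of 10). The part of these cells in the differences was not tested.

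Direct comparisons of Δ225 with the other deletions gave the differences that did not rest on WT. Δ225 against Δ306 called 2 members, both higher in Δ225, where 13.2% of all genes were called: Vwf at 1.89 (SE 0.36, adjusted p 0.00239) and Cdh5 at 0.70 (SE 0.23, adjusted p 0.0457). Δ225 against Δ93 called 4, again all higher in Δ225, where 20.8% of all genes were called. They were Gja5 at 1.80 (SE 0.42, adjusted p 0.00454), Vwf at 1.32 (SE 0.27, adjusted p 0.00181), Cdh5 at 0.54 (SE 0.18, adjusted p 0.0374) and Efnb2 at 0.52 (SE 0.16, adjusted p 0.0277). Δ225 against Δ104 called none, where 0.645% of all genes were called, and 0 by DESeq2 (1.08% of all genes). There 1 member had an unadjusted p under 0.05, against 2423 of all 22941 genes tested. DESeq2 called 7 members for Δ225 against Δ306, 5 higher and 2 lower (10.1% of all genes), and 6 higher for Δ225 against Δ93 (14.1%). The medians over the 37 members were 0.05, 0.07 and 0.17 for Δ225 against Δ306, Δ93 and Δ104. The calls of Vwf in both comparisons and of Gja5 against Δ93 held under all alternatives run. Those of Cdh5 were lost under 12 of 19 alternatives against Δ306 and 12 of 22 against Δ93, and that of Efnb2 under 8 of 22, in each case including the removal of the library labelled Δ225 replicate 3 (adjusted p 0.0865, 0.111 and 0.0656), whose Fgf9 level of 16.5 CPM was above that of WT. Without it 1 member was called against Δ306, Vwf at 1.97 (adjusted p 0.00175), where 13.4% of all genes were called. Against Δ93, 2 were called, Vwf at 1.4 (adjusted p 0.00147) and Gja5 at 1.47 (adjusted p 0.0144), where 18.6% of all genes were called.

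Libraries of Δ225 all lay above those of Δ306 for 3 members and below for 2 (9.82% and 10.4% of all genes). The counts were 1 and 1 against Δ104 (0.68% and 0.989%), and 2 and 0 against Δ93 (5.39% and 5.58%). Against Δ306, Δ225 was higher throughout for Sox7 (0.63, SE 0.25, adjusted p 0.0919) and Angpt2 (0.69, SE 0.41, adjusted p 0.28), and lower for Egfl7 (−0.98, SE 0.34, adjusted p 0.059) and Vegfa (−0.47, SE 0.16, adjusted p 0.054). Against Δ104, Δ225 was higher for Angpt2 (0.60, SE 0.37, adjusted p 0.612) and lower for Vegfa (−0.38, SE 0.15, adjusted p 0.304). Among the other arterial genes and ligands, Gja5 differed by 1.56 (SE 0.54, adjusted p 0.0584) and Efnb2 by 0.58 (SE 0.20, adjusted p 0.0611) between Δ225 and Δ306. Angpt1 differed by 0.98 between Δ225 and Δ93 (SE 0.41, adjusted p 0.0929). The remaining arterial and ligand differences between these deletions lay between −0.34 and 0.79, with adjusted p of 0.0689 or more.

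In Meis1 KO the members had a median log2 fold change of 0.05 against 0.00 over all 16791 genes tested. The mean log2 level of the 24 pan-endothelial genes was 4.87 to 5.36 in KO and 4.80 to 5.37 in WT. One arterial gene was called, where 1.8% of all genes were called. Dll4 was at 14.4, 15.8 and 11.7 CPM in WT and at 30.8, 24.8, 24.5 and 22 in KO, without overlap. It rose by 0.87 (SE 0.15, adjusted p 0.0389 by edgeR), a 1.83-fold higher level. The call was lost under 7 of 14 alternatives, those without any single KO library (adjusted p 0.096 to 0.124), without WT replicate 2 (0.0986) or 3 (0.0902), and with the replicate number as a block (0.0774).

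Gja4 and Gja5 were also higher in every KO library than in any WT library, which was found in 12.3% of all genes tested. Gja4 was at 16.4, 20.4 and 16.0 CPM in WT and at 28.4, 22.3, 26.8 and 28.9 in KO, a fold change of 0.59 (SE 0.13, adjusted p 0.062). Gja5 was at 19.3, 32.9 and 24.4 CPM in WT and at 45.1, 44.7, 38.4 and 45.2 in KO, a fold change of 0.76 (SE 0.17, adjusted p 0.066). Neither passed the threshold. No member had all KO libraries below WT, found in 7.43% of all genes, and DESeq2 called 3 members higher and 1 lower (5.89% of all genes). Efnb2 overlapped, at 111, 87.2 and 81.8 CPM against 98.2, 91.2, 97.7 and 101, a fold change of 0.06 (SE 0.11, adjusted p 0.833). Relative to the 24 pan-endothelial genes, Dll4 was at −0.72 to −0.21 in KO and −1.47 to −1.06 in WT, and Gja4 at −0.59 to −0.18 and −1.30 to −0.70, each without overlap. Gja5, at −0.08 to 0.63 in KO and −1.07 to −0.02 in WT, overlapped on this scale.

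**Figure D4:**
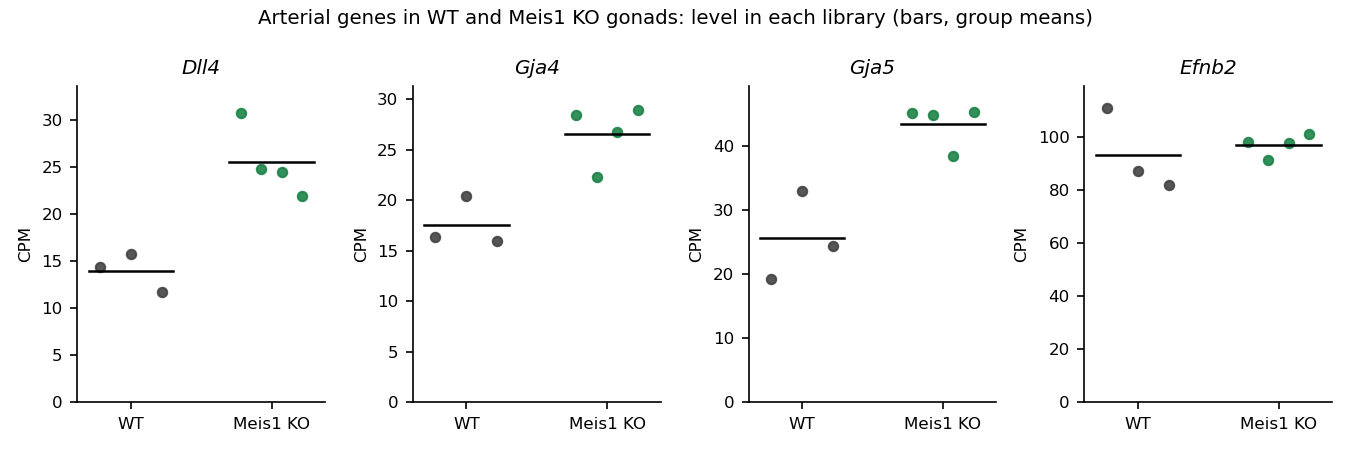
Level in CPM (vertical axis from 0) of the 4 arterial genes in each library (points) of WT and Meis1 KO, with bars at the group means. All 4 KO libraries lie above all 3 WT libraries for Dll4, Gja4 and Gja5, and the groups overlap for Efnb2.

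The pan-endothelial genes and ligands were not called in Meis1 KO. Sox17 was at 26.0, 20 and 14.3 CPM in WT and 13.2, 9.71, 15.8 and 12.8 in KO, while Sox7 was at 24.5, 30.3 and 19.9 in WT and 43.0, 28.6, 34.2 and 36.7 in KO, and both overlapped. The ligand fold changes were 0.32 for Vegfa (SE 0.20, adjusted p 0.416), 0.28 for Vegfc (SE 0.27, adjusted p 0.627), −0.57 for Angpt1 (SE 0.29, adjusted p 0.335), −0.75 for Angpt2 (SE 0.50, adjusted p 0.46) and 0.50 for Apln (SE 0.21, adjusted p 0.237). Without WT replicate 1, 6 of 37 members were called higher in Meis1 KO, where 12.9% of all genes were called.

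Markers of other cells also differed in Meis1 KO, where 1.8% of all genes were called. Of the pre-granulosa genes Foxl2, a granulosa transcription factor, was called higher, at 0.821 ± 0.138 CPM in WT and 6.16 ± 0.581 in KO (2.90, SE 0.19, adjusted p 0.000753). Alas2 and Hba-a1, of 10 erythroid genes tested, were lower, at −1.03 (SE 0.16, adjusted p 0.034) and −1.0 (SE 0.16, adjusted p 0.0352). The 10 macrophage genes all had negative fold changes (median −0.41, none called by edgeR), and 8 of 9 Sertoli genes did (sum 2480 to 2970 CPM in WT and 1810 to 2330 in KO, none called). The part of these cells in the arterial differences was not tested.

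Other genes of the vessel pathways were counted from a list of 26 ligands, receptors, Notch targets and guidance genes, and a list of 35 further endothelial genes. In Meis1 KO, where 1.8% of all genes were called, 4 pathway genes were higher and none lower. Sema3g, an arterial semaphorin, had 42.7 ± 4.42 CPM in WT and 74.6 ± 6.41 in KO (SD, n = 3 and 4), a fold change of 0.81 (SE 0.10, adjusted p 0.0194). The Notch targets Hey1 (0.74, SE 0.14, adjusted p 0.0475) and Hes1 (0.48, SE 0.08, adjusted p 0.0389) and the chemokine receptor Cxcr4 (0.73, SE 0.14, adjusted p 0.0449) also rose. Of the 35 endothelial genes 1 was higher, Apold1, an immediate early gene of endothelium, at 3.43 ± 0.532 CPM in WT and 11 ± 3.48 in KO (1.67, SE 0.28, adjusted p 0.0382). Whether the calls of these list genes hold with a library left out was not examined. Without any single KO library, only 15 to 22 of all genes were called in Meis1 KO, in place of 303.

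In the deletions the medians of the same lists were below 0. In Δ306, where 6.43% of all genes were called, 5 of 26 pathway genes were lower and 1 higher. In Δ93, where 14.1% of all genes were called, 15 were lower and 1 higher. Jag1, a Notch ligand, fell by 2.22 in Δ306 (SE 0.45, adjusted p 0.00821) and 2.44 in Δ93 (SE 0.36, adjusted p 0.000645). Heyl, a Notch target of mural cells, fell by 2.58 and 2.17 (SE 0.50 and 0.39, adjusted p 0.00685 and 0.00163). The gene that rose in both was Adm, the vasoactive peptide adrenomedullin, from 1.01 ± 0.134 CPM in WT to 13.4 ± 0.686 in Δ306 and 12.2 ± 3.31 in Δ93. Cxcl12, a chemokine of perivascular and stromal cells, fell by 2.64 in Δ93 (SE 0.52, adjusted p 0.00263). In Δ225 and Δ104, where 0.209% and 0.061% of all genes were called, no gene of either list was called against WT by edgeR. The medians over the 26 pathway genes there were −0.23 and −0.51.

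Of the 35 further endothelial genes, 4 were lower and 1 higher in Δ306 (6.43% of all genes called), and 9 lower and 3 higher in Δ93 (14.1%). Thbd, the anticoagulant receptor thrombomodulin, fell by 2.43 and 2.15 in Δ306 and Δ93 (SE 0.50 and 0.40, adjusted p 0.00862 and 0.00181). Gpr182, an endothelial chemokine-binding receptor, fell by 1.62 and 1.83 (SE 0.36 and 0.29, adjusted p 0.0121 and 0.000792). Podxl, a sialomucin that epithelia also make, rose by 1.76 and 2.03 (SE 0.39 and 0.36, adjusted p 0.0123 and 0.00155). The median over these 35 genes was −0.31, −0.43, −0.47 and −0.34 in Δ306, Δ225, Δ104 and Δ93, with 21, 29, 29 and 25 of 35 fold changes negative. Their summed level was not lower than WT in Δ306 and Δ93, at 1140 to 1530 CPM in WT, 1210 to 1690 in Δ306 and 1370 to 1790 in Δ93. Podxl made up much of it, at means of 196, 663 and 801 CPM. Of 4 lymphatic endothelial genes, Reln alone was called against WT, higher in Δ93 by 1.22 (SE 0.37, adjusted p 0.0311).

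The WT libraries stood apart in base composition. The GC balance of a library, the median deviation from the average library, in log2, of the 20% of genes richest in GC minus that of the 20% poorest, was 0.39 to 0.61 in WT and −1.70 to 0.29 in the deletion libraries. Mitochondrial genes took 0.831% to 1.79% of WT counts and 2.23% to 11.6% of deletion counts. After a correction for GC content the medians over the 37 members were −0.50, −0.39, −0.57 and −0.58 in Δ306, Δ225, Δ104 and Δ93. Called lower were 2, 0, 0 and 8 members, where 7.55%, 0.0567%, 0.0567% and 15.4% of all genes were called. The lowest pan-endothelial levels were those of Δ104 replicate 1 at 3.63 and Δ225 replicate 1 at 3.70. These 2 libraries were the lowest of all 22 for 13 and 15 members. Without the 4 libraries of lowest GC balance (Δ225 replicates 1 to 3 and Δ93 replicate 1), 13, 0, 15 and 16 members were called lower, where 18.7%, 2.95%, 12.6% and 27.1% of all genes were called. Without the 4 libraries low in Y-linked genes the counts were 0, 0, 0 and 5, where 0.441%, 0.0389%, 0.00864% and 6.62% of all genes were called, and the 5 in Δ93 were Cdh5, Vwf, Sox17, Tek and Gja5.

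**Figure D5:**
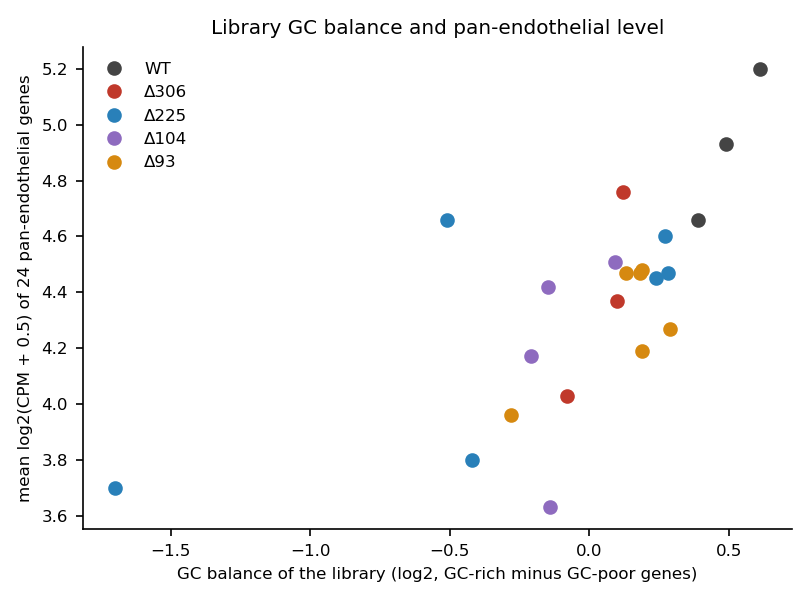
Mean log2(CPM + 0.5) of 24 pan-endothelial genes (vertical axis) against the GC balance of the library (horizontal axis, log2) in the 22 libraries of WT and the deletions, coloured by group. The 3 WT libraries have the highest GC balance, 0.39 to 0.61, and the deletion libraries lie at 0.29 or below; 1 Δ225 library lies apart at −1.70.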

How the data were processed

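The deposited tables hold read counts per gene, not normalized, for each library. Per the submitters' processing notes, the authors used STAR and DESeq2 with the mm10 build, and for WT and Δ306 STAR 2.7.10a and Subread featureCounts are named. The annotation and strand setting of the counting are not given in the sources used here. Library totals were 11582619 to 53392393 counts in the table of all deletions and 35468633 to 51732897 counts in the Meis1 table. Columns of other samples used numbered 0. WT counts in the Meis1 table were identical to those of the first Fgf9 table at all 31053 genes.

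Groups came from the sample labels, and those of the first Fgf9 table, used as an alternative only, from the series' design text. Genes were filtered with filterByExpr, scaled by TMM and tested in edgeR 4.0.16 (R 4.3.3) by the quasi-likelihood test with Benjamini-Hochberg adjustment, and called at an adjusted p under 0.05. All 22 libraries of WT and the deletions entered 1 fit (22941 genes, 17 residual degrees of freedom), and the Meis1 table another (16791 genes, 5). CPM were computed on TMM-scaled library sizes. DESeq2 1.42.0, other scalings, filters, left-out libraries and corrections for GC content and length were alternatives. Fold changes are log2, and levels relative to other genes use log2(CPM + 0.5). Gene positions and exon lengths are those of GENCODE M21 on GRCm38, and promoters those of RefSeq on GRCm38.p6.

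The members and lists were chosen with earlier results of these data known. All 37 members are named. Fold change, SE and adjusted p are given for members called in a comparison, the 4 arterial genes and 5 ligands, and members whose libraries did not overlap. Of the pathway and endothelial lists, at most 5 called genes of smallest p are named per comparison. Replicates are numbered in the labels without litters or cultures, so p-values measure only the spread between these samples. The replicate number was not used as a block, other than as an alternative. On simulated counts the test recovered, of 100 genes changed by log2 1, 23 in Δ306, 34 in Δ225, 35 in Δ93 and 85 in Meis1 KO, and of 100 changed by log2 2, 85, 94, 88 and 99 (22327, 22345, 22354 and 16575 genes). The simulated spread followed only the trend with expression level, without each gene's own spread or the GC shifts between libraries. Recovery on the real counts can therefore differ from these rates.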

Additional observations from a re-analysis of the deposited data

Results flagged for a closer look

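Of 148 groups of 4 to 6 libraries examined, 10 held a library far from the others of its group, where chance gives about 5%, or 1 in 20. In Meis1 KO replicate 3, Egfl7 was at 50.5 CPM (the others 37 to 38.3), Vwf at 52.1 (41.3 to 43.1) and Gja5 at 38.4 (44.7 to 45.2). In Δ104, replicate 4 had 27.0 CPM of Egfl7 (the others 9.52 to 12.4) and 79.3 of Kdr (130 to 136), and replicate 1 had 13.0 of Emcn (23.2 to 25.1). In Δ225 replicate 3, Emcn was at 45.1 CPM (the others 15.4 to 25.9) and Gja5 at 40.3 (10.8 to 20.9). In Δ93, Cldn5 was at 10.1 CPM in replicate 1 (the others 23.8 to 26.6) and Gja5 at 10.8 in replicate 6 (3.56 to 6.01).

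Δ225 differed from Δ306 or Δ93, by the direct edgeR test between them, for 4 members. Δ306, Δ104 and Δ93 were not tested against each other. Δ225 was above Δ306 by 1.89 for Vwf and 0.70 for Cdh5 on the log2 scale. It was above Δ93 by 1.80 for Gja5, 1.32 for Vwf, 0.54 for Cdh5 and 0.52 for Efnb2. As given with those results, the values for Cdh5 and Efnb2 lost their calls under several alternatives, among them the removal of the library labelled Δ225 replicate 3.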

How the results depend on the processing

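Members called numbered 2 in Δ306, 0 in Δ225, 0 in Δ104 and 7 in Δ93 against WT, 2, 0 and 4 for Δ225 against Δ306, Δ104 and Δ93, and 1 in Meis1 KO. DESeq2 called 5, 1, 2 and 11 in the deletions, 7 for Δ225 against Δ306 and 4 in Meis1 KO. Fitted on the compared groups only, Δ306 had 11, Δ93 19 and Δ225 against Δ306 1, where 17.5%, 20.3% and 9.7% of all genes were called. In the first Fgf9 table Δ306 had 9 (18.8% of all genes). With no filter on low counts Δ225 against Δ306 had 1 (4.98% of all genes). With the replicate block the counts were 12 in Δ225, 2 in Δ104, 12 in Δ93, 4 for Δ225 against Δ306 and 0 in Meis1 KO. Of all genes, 7.14%, 2.05%, 14.6%, 14.8% and 0.191% were called in these with the block. In no comparison did every same-numbered pair correlate above 0.1. The pairs came nearest in Δ306 against WT (0.07 to 0.31, each of 3 best with its own number) and Δ225 against Δ104 (0.09 to 0.37, 2 of 4), which is a hint of pairing from the data and not from the labels. The corrections for GC and length and the removal of 4 libraries at once were chosen after seeing the data.

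The GC correction gave 5 for Δ225 against Δ306 (15.7% of all genes), and the GC and length correction 4 (14.2%). Without the 4 libraries of lowest GC balance the counts were 13 in Δ306 (18.7%), 15 in Δ104 (12.6%), 16 in Δ93 (27.1%) and 2 for Δ225 against Δ93 (17.5%). Without the 4 low in Y-linked genes the counts were 0 in Δ306 (0.441%), 1 for Δ225 against Δ306 (2.23%) and 2 for Δ225 against Δ93 (9.06%). Leaving out 1 library gave 1 to 6 in Δ306, 0 to 0 in Δ225, 0 to 2 in Δ104 (2 without Δ104 replicate 4), 3 to 6 in Δ93 (3 without WT replicate 1), 1 to 4, 0 to 0 and 2 to 5 for Δ225 against Δ306, Δ104 and Δ93, and 0 to 6 in Meis1 KO (6 without WT replicate 1). In those fits 0.856% to 5.48%, 0.021% to 0.535%, 0.0042% to 2.31% and 6.25% to 15.7% of all genes were called in Δ306, Δ225, Δ104 and Δ93. The shares were 3.71% to 14.8%, 0.0394% to 2.44% and 15.0% to 28.3% for Δ225 against Δ306, Δ104 and Δ93. In Meis1 KO the share was 0.0899% to 12.9%. The causes were not tested.

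Among the fold changes given with a test, those that changed sign were uncalled ligand and arterial ones. Over all 37 members more signs moved: with no composition factor 21 were negative for Δ225 against Δ306 in place of 16. In Δ306 against WT, Vegfa was at 0.05 with no composition factor, 0.03 in the first table, 0.01 with the GC and 0.08 with the GC and length correction, and Vegfc at 0.08 without libraries low in Y-linked genes. In Δ225 against WT, Efnb2 was at 0.04 with the GC and length correction, Angpt2 at 0.0 with the block and Apln at 0.08 without libraries of low GC balance. In Δ93 against WT, Apln was at 0.0 with no composition factor, 0.02 with the GC correction and 0.02 without libraries of low GC balance. In Δ225 against Δ306 with the block, Gja4 was at −0.14, Dll4 at −0.05 and Apln at −0.2. There Angpt1 was at −0.02, −0.04 and −0.12 with no composition factor, the GC and the GC and length correction, and Apln at −0.04 with no composition factor and −0.09 without libraries low in Y-linked genes. In Δ225 against Δ104, Efnb2 was at −0.01 with no composition factor, Gja4 at −0.12 and Apln at −0.1 with the block, and Apln at −0.01 without libraries low in Y-linked genes. In Δ225 against Δ93, Gja4 was at 0.05 and 0.1 with the GC and the GC and length correction, Vegfc at −0.03 with the GC correction, and Apln at 0.05 without libraries of low GC balance.

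Leaving out 1 library gave these ranges. In Meis1 KO, Efnb2 was at −0.04 to 0.2 and Angpt2 at −1.1 to 0.07. In Δ306 against WT, Vegfa was at −0.22 to 0.19, Vegfc at −0.79 to 0.16, Angpt1 at −0.81 to 0.3 and Angpt2 at −1.14 to 0.02. In Δ225 against WT, Efnb2 was at −0.21 to 0.03, Angpt1 at −0.4 to 0.24 and Angpt2 at −0.43 to 0.73. In Δ104 against WT, Efnb2 was at −0.37 to 0.04, Vegfa at −0.31 to 0.1 and Angpt2 at −1.05 to 0.11. In Δ93 against WT, Vegfa was at −0.32 to 0.09, Angpt2 at −0.9 to 0.26 and Apln at −0.11 to 0.1. In Δ225 against Δ306, Vegfc was at −0.55 to 0.32, Angpt1 at −0.4 to 0.72 and Apln at −0.16 to 0.44. In Δ225 against Δ104, Efnb2 was at −0.15 to 0.27, Gja4 at −0.17 to 0.38, Dll4 at −0.03 to 0.68 and Apln at −0.05 to 0.23. In Δ225 against Δ93, Dll4 was at −0.0 to 0.3 and Vegfc at −0.13 to 0.2. Of the values with 1 library left out, 1000 kept direction and call, 48 lost a call, 20 gained a call and 45 changed sign. Under the other alternatives 1181 kept both, 22 lost a call, 106 gained a call and 27 changed sign. Depth limits low genes most: Angpt2 was at 0.954 to 5.45 CPM in all libraries of WT and the deletions.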
